A study of Danio rerio with 8 samples.

Results

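The genes described here encode the enzymes that charge transfer RNAs and the factors that carry the ribosome along a messenger RNA and release the finished chain. They were chosen by gene symbol from the array annotation: symbols of the aminoacyl-tRNA synthetase form (such as rars1 or wars2) and symbols that start with eef, aimp, etf1 or gspt. The choice held 53 of 15502 probe sets and 39 of 8793 named genes. The rule itself used no measured value, but it was written with earlier results of these data known. Of the 39, 16 were cytosolic synthetase genes, 3 were genes of proteins that hold synthetases in a complex, and 5 were mitochondrial synthetase genes. Another 10 were elongation factor genes and 3 were release factor genes. The symbol rule also matched 2 genes of enzymes that modify elongation factors, eef2k and eef1akmt2. The leucyl-, aspartyl- and seryl-tRNA synthetases were not analysed here.

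An aminoacyl-tRNA synthetase joins 1 kind of amino acid to its transfer RNA. In the cytosol, eEF1A brings the charged transfer RNA to the ribosome as a complex with GTP, eEF1B exchanges the spent GDP on eEF1A for new GTP, and eEF2 moves the ribosome to the next codon. At a stop codon eRF1 and its GTPase partner eRF3 release the protein. Mitochondria translate their own messages with a mostly separate set of synthetases that nuclear genes encode. These steps serve every cell of the retina, and photoreceptors, which renew their outer segments throughout life, depend on steady protein synthesis.

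Whole-retina RNA of albino zebrafish was hybridised to 8 Affymetrix zebrafish arrays, 4 from unlesioned control fish and 4 from light-lesioned fish. Fish of both groups were albino and had been adapted to the dark. The lesioned fish then spent 72 h under constant bright light, which kills photoreceptors, and the controls went back to ordinary lighting, so that the lesion and the lighting itself cannot be told apart. The labels name no transgene and give neither the fish's age nor whether a sample is 1 fish or a pool, so the spread behind every p-value here is that of these 8 samples and may be technical.

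Levels are log2 values from RMA, an array summary method, so that a difference of 1 is a 2-fold difference, and means are given ± SD with n = 4 arrays per group. The array medians ran from 7.63 to 7.69. Probe sets for bacterial genes, which match no zebrafish RNA, reached group means of up to 7.08, and a level at or under that is called background here. The retina label was borne out by 10 photoreceptor markers, whose mean level lay between 13.59 and 13.67 on the control arrays. A probe set was called when limma's adjusted p over the whole array was under 0.05. Levels of different probe sets are not comparable with each other, because each probe binds with its own strength, so only changes are compared between genes. Changes also depend on the probe set, as the genes with several probe sets show below.

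After the light lesion most of the cytosolic synthetase genes were higher, and the eEF1A, eEF2 and eRF3 families split between higher and lower copies. Reading each gene from its probe set of highest mean, 23 of 39 genes rose (59.0%), where 24.4% of all genes on the array were called higher. A further 6 fell (15.4%), where 20.1% of all genes were called lower, and 10 did not pass. The median change of the 39 genes was 0.24 on the log2 scale, beside -0.03 over all 8793 genes. Called in either direction were 29 of the 39 genes, against 44.5% of all genes. For 20 genes the lowest light lesion array exceeded the highest control (23.7% of all genes) and for 6 the highest light lesion array was under the lowest control (19.8%), so that the groups were apart for 26 genes against 43.5% over the array. On all probe sets, 26 of 53 were called higher and 9 lower, against 19.5% and 20.7% of the array. Changes of at least 2-fold were found for 4 of the 39 genes (eef1b2, eef2b, eef1db and eef1a1b), and 5.42% of all genes were called with a change of that size. At background in both groups lay 3 of the 39 genes but 2289 of the 8793, and all these shares include such genes. Shares among genes above background were not computed. In whole-retina RNA a change in the number of cells of a type and a change in RNA per cell cannot be told apart.

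**Figure D1:**
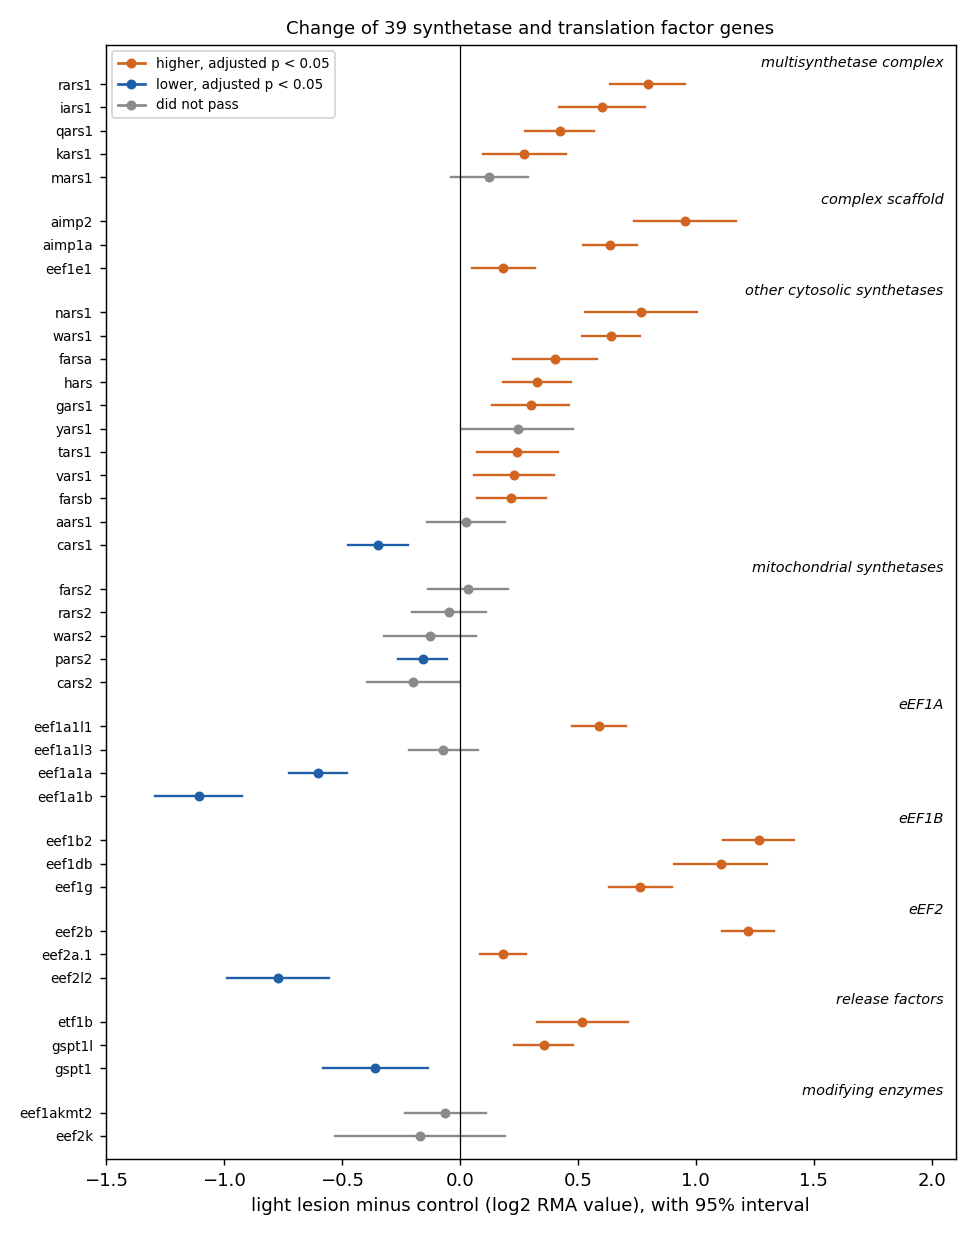
Each point is the light lesion minus control difference of 1 gene in log2 RMA value, from its probe set of highest mean, and each line its 95% interval from the limma fit (4 arrays per group). Orange genes passed as higher, blue genes as lower and grey genes did not pass: the highest is eef1b2 at 1.27 and the lowest eef1a1b at -1.11, while the 5 mitochondrial synthetases lie between -0.20 and 0.04.

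The 16 cytosolic synthetase genes and the 3 scaffold genes mostly moved one way: 15 of these 19 rose, 1 fell and 3 did not pass, with a median change of 0.30. Over the array 24.4% of all genes were called higher and 20.1% lower. The same shares stand beside the counts of smaller groups below, which hold few genes each. In mammals several synthetases are bound into a multisynthetase complex by the scaffold proteins AIMP1, AIMP2 and EEF1E1 (also called AIMP3). All 3 scaffold genes rose. The largest rise was that of aimp2, whose control arrays read 8.98, 8.66, 8.64 and 8.74 and whose light lesion arrays read 9.62, 9.79, 9.89 and 9.56. The groups did not overlap, and the mean went from 8.76 ± 0.16 to 9.71 ± 0.15, which is 1.94-fold (log2 fold change 0.96 with SE 0.10, adjusted p = 4.46e-05). The aimp1a scaffold rose from 9.16 ± 0.03 to 9.80 ± 0.08 (0.64, adjusted p = 1.07e-05). The smallest rise of the scaffolds was that of eef1e1, from 9.95 ± 0.05 to 10.14 ± 0.10 (0.18, adjusted p = 0.0321). That call was lost in 7 of 14 alternative settings, among them the omission of control replicate 2, 3 or 4 or of light lesion replicate 1 or 2, with an adjusted p of up to 0.0947.

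Of the 5 member synthetases that belong to the mammalian complex, 4 rose. The complex also holds eprs1, the bifunctional glutamyl-prolyl-tRNA synthetase, whose symbol lies outside the rule. It stood at 9.96 ± 0.11 and 10.08 ± 0.09 and did not pass (0.12, adjusted p = 0.211), so that 4 of the 6 measured rose. The arginyl-tRNA synthetase rars1 read 8.20, 8.11, 8.14 and 8.07 on the control arrays and 8.78, 9.11, 8.87 and 8.95 on the light lesion arrays. Every light lesion array lay more than 0.5 above every control array, and the rise was 1.74-fold (log2 fold change 0.80, SE 0.07, adjusted p = 2.12e-05). The isoleucyl-tRNA synthetase iars1 rose by 0.60 (adjusted p = 2.70e-04), with light lesion arrays that were closer together (SD 0.05) than the controls (SD 0.17). The glutaminyl-tRNA synthetase qars1 rose by 0.42 at its probe set of highest mean (adjusted p = 6.20e-04), with control arrays at 8.12, 8.05, 8.18 and 8.08 and light lesion arrays at 8.63, 8.60, 8.37 and 8.53.

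The lysyl-tRNA synthetase kars1, which in mammals serves both cytosol and mitochondria, rose from 11.28 ± 0.13 to 11.55 ± 0.11 (0.27, adjusted p = 0.0197). Its highest control array (11.38) and its lowest light lesion array (11.38) were equal to 2 decimals. The kars1 call was lost in 4 of 14 settings, including the omission of control replicate 2 or of light lesion replicate 2 or 4, with an adjusted p of up to 0.0585. The methionyl-tRNA synthetase mars1 averaged 7.47 ± 0.10 in controls and 7.60 ± 0.11 in lesioned retinas. That difference of 0.13 did not pass (95% interval -0.04 to 0.29, adjusted p = 0.204).

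Among the other 11 cytosolic synthetases 8 rose, 1 fell and 2 did not pass. The asparaginyl-tRNA synthetase nars1 rose most. Its control arrays read 10.68, 10.60, 10.54 and 10.62, and its light lesion arrays read 11.53, 11.59, 11.06 and 11.33. The light lesion arrays spread more widely (SD 0.24) than the controls (SD 0.06), and all lay above them (1.70-fold, log2 fold change 0.77, SE 0.11, adjusted p = 3.29e-04). The tryptophanyl-tRNA synthetase wars1 followed, from 7.74 ± 0.05 to 8.38 ± 0.08 (0.64, adjusted p = 1.60e-05).

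Smaller rises were found for both subunits of the phenylalanyl-tRNA synthetase, farsa (0.40, adjusted p = 0.00272) and farsb (0.22, adjusted p = 0.0232). The histidyl-tRNA synthetase hars rose by 0.33 (adjusted p = 0.00259), and the glycyl-tRNA synthetase gars1 by 0.30 (adjusted p = 0.00885). The threonyl-tRNA synthetase tars1 (0.24, adjusted p = 0.0295) and the valyl-tRNA synthetase vars1 (0.23, adjusted p = 0.0362) had overlapping groups, as did farsb. These 3 calls were the least stable of the 8. Each was lost in 6 or 7 of 14 settings, in 4 or 5 of them by leaving out 1 array, with adjusted p of up to 0.0700 for farsb, 0.0800 for tars1 and 0.0964 for vars1. All 3 lost their call without control replicate 4 and without light lesion replicate 1.

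The single cytosolic synthetase that fell was cars1, which charges the cysteine transfer RNA. Its control arrays read 8.09, 8.17, 8.08 and 7.99, and its light lesion arrays read 7.75, 7.83, 7.67 and 7.69. All 4 light lesion arrays lay below the controls, a fall to 0.786 of the control level (log2 fold change -0.35, SE 0.06, adjusted p = 9.35e-04). The alanyl-tRNA synthetase aars1 stood at 11.22 ± 0.07 and 11.25 ± 0.14 (0.03, 95% interval -0.14 to 0.19, adjusted p = 0.788). For the tyrosyl-tRNA synthetase yars1 the probe set of highest mean gave 0.25, which did not pass (95% interval 0.01 to 0.48, adjusted p = 0.0913).

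**Figure D2:**
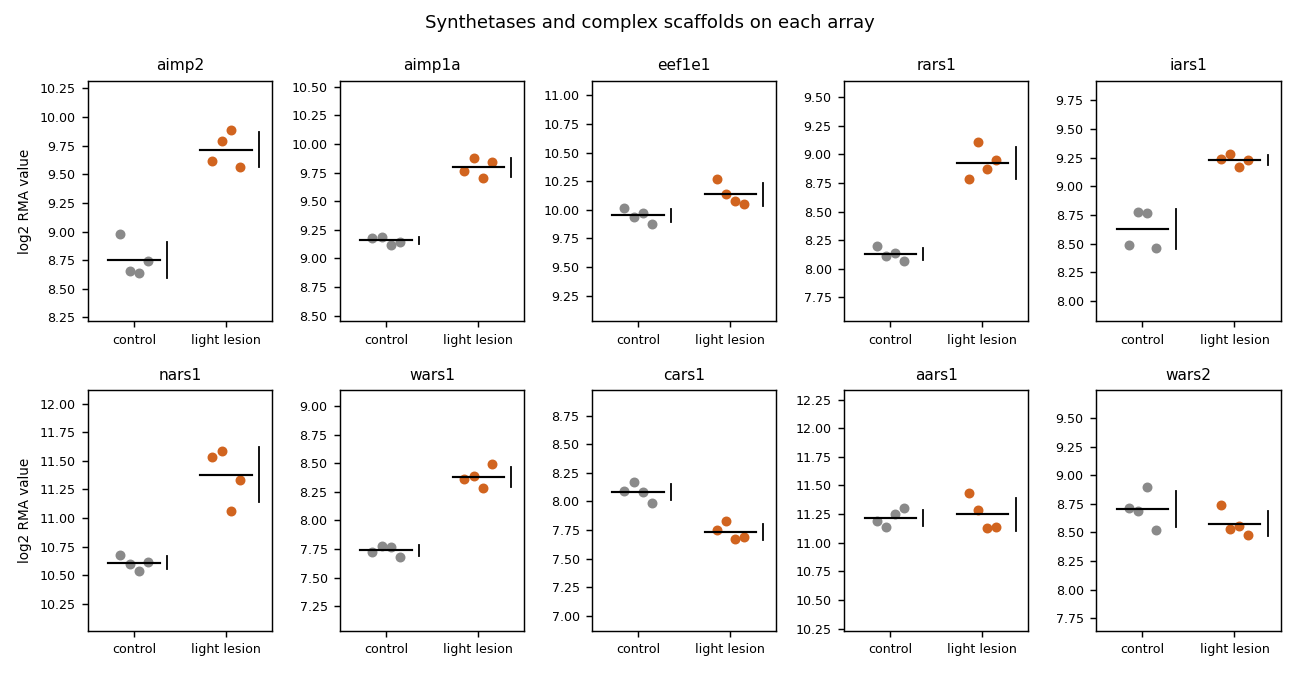
The log2 RMA value of 10 genes on each of the 4 control arrays (grey) and 4 light lesion arrays (orange), with the group mean as a horizontal bar and the SD as a vertical line; every panel spans 2.1 log2 units. The scaffolds aimp2 and aimp1a and the synthetases rars1, iars1, nars1 and wars1 show 2 separate groups, cars1 shows the light lesion arrays below the controls, and aars1 and the mitochondrial wars2 overlap.

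Of the 5 mitochondrial synthetases none was called higher, 1 was called lower and 4 did not pass, with a median change of -0.13. With 24.4% of all genes called higher and 20.1% lower, these counts over 5 genes are near the shares of the whole array. The tryptophanyl-tRNA synthetase wars2 averaged 8.70 ± 0.16 in controls and 8.58 ± 0.11 in lesioned retinas (-0.13, 95% interval -0.32 to 0.07, adjusted p = 0.285). The arginyl-tRNA synthetase rars2 differed by -0.04 (95% interval -0.20 to 0.11), and the phenylalanyl-tRNA synthetase fars2 by 0.04 (95% interval -0.13 to 0.20). For the cysteinyl-tRNA synthetase cars2 the difference was -0.20 (adjusted p = 0.103), and without light lesion replicate 1 it passed (adjusted p = 0.0381). The prolyl-tRNA synthetase pars2 was called lower, with control arrays at 6.83, 6.82, 6.77 and 6.75 and light lesion arrays at 6.69, 6.58, 6.60 and 6.65 (-0.16, adjusted p = 0.0207). Both pars2 groups lay at background, and the call was lost in 5 of 14 settings (adjusted p up to 0.0660), including the omission of control replicate 2 or light lesion replicate 2 or 3.

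For 5 amino acids both the cytosolic and the mitochondrial enzyme were measured. With arginine the cytosolic rars1 changed by 0.80 and the mitochondrial rars2 by -0.04. With tryptophan the changes were 0.64 for wars1 and -0.13 for wars2, and with phenylalanine 0.40 and 0.22 for the cytosolic subunits against 0.04 for fars2. For cysteine the cytosolic cars1 fell by 0.35 on the log2 scale and the mitochondrial cars2 differed by -0.20. For proline the cytosolic eprs1, which also charges the glutamate transfer RNA, differed by 0.12 and did not pass, and the mitochondrial pars2 changed by -0.16 at background level. The differences between the cytosolic and the mitochondrial changes were not tested. The array's synthetic tag probe sets reached 7.96, above the background level used here. The control means of rars2 (7.97) and fars2 (7.97) lay close to 7.96, and those of cars2 (7.60) and pars2 (6.79) under it. The control mean of wars2 (8.70) lay above it, and of these cytosolic genes only wars1 (7.74) lay under it. Whether low signal hid changes of the mitochondrial genes was not tested.

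The eEF1A genes moved apart. On the control arrays eef1a1l1 read 13.74, 13.80, 13.72 and 13.83, and on the light lesion arrays 14.45, 14.30, 14.34 and 14.37. The groups were well separated, and the rise was 1.51-fold (log2 fold change 0.59, SE 0.05, adjusted p = 1.70e-05). The copy eef1a1a fell, with control arrays at 13.50, 13.47, 13.46 and 13.48 and light lesion arrays at 12.90, 12.93, 12.94 and 12.74, to 0.660 of the control level (log2 fold change -0.60, SE 0.05, adjusted p = 2.21e-05). The copy eef1a1b fell further, from 12.01, 11.95, 11.94 and 12.01 to 11.09, 10.93, 10.73 and 10.73, to 0.465 of the control level (log2 fold change -1.11, SE 0.08, adjusted p = 6.31e-06). For both copies the light lesion arrays were under every control array. Another eEF1A gene, eef1a1l3, stood at 7.84 ± 0.12 and 7.77 ± 0.05 (adjusted p = 0.429).

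The gap between eef1a1l1 and eef1a1a widened by 1.19 on the log2 scale, and the gap between eef1a1l1 and eef1a1b by 1.70. These gaps are given as a description with no test, because the genes were paired for their opposite changes. The coding sequences of eEF1A copies are much alike, and how far a probe set reads more than 1 copy was not tested.

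The genes of the exchange factor eEF1B rose together: all 3 measured were called higher (24.4% of all genes were), with a median of 1.11. The catalytic subunit eef1b2 showed the largest change of the 39 genes. Its control arrays read 12.27, 12.25, 12.13 and 12.27, and its light lesion arrays read 13.36, 13.65, 13.48 and 13.50. More than 1 log2 unit separated the groups, and the rise was 2.41-fold (log2 fold change 1.27, SE 0.07, adjusted p = 1.01e-06). The second catalytic subunit, eef1db, read 10.91, 10.83, 10.84 and 10.86 on the control arrays and 11.97, 12.08, 12.12 and 11.69 on the light lesion arrays. It rose 2.15-fold (log2 fold change 1.11, SE 0.09, adjusted p = 9.71e-06), with light lesion replicate 4 lower than the other 3. The scaffold subunit eef1g rose from 12.87 ± 0.08 to 13.64 ± 0.08 (1.70-fold, adjusted p = 8.57e-06).

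The eEF2 genes split as well. On the control arrays eef2b read 12.14, 12.28, 12.16 and 12.17, and on the light lesion arrays 13.35, 13.46, 13.40 and 13.41. The groups lay more than 1 log2 unit apart, with the smallest adjusted p of the 39 genes (2.33-fold, log2 fold change 1.22, SE 0.05, adjusted p = 2.33e-07). The eEF2-like gene eef2l2 fell, from 10.78, 11.02, 10.74 and 10.85 to 10.31, 9.90, 9.98 and 10.13, to 0.587 of the control level (log2 fold change -0.77, SE 0.10, adjusted p = 1.75e-04). The gap between eef2b and eef2l2, also paired for their opposite changes, widened by 1.99 in log2 value. The remaining eEF2 gene, eef2a.1, was called higher by 0.18 (adjusted p = 0.00763), but its group means, 5.95 and 6.13, both lay at background.

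**Figure D3:**
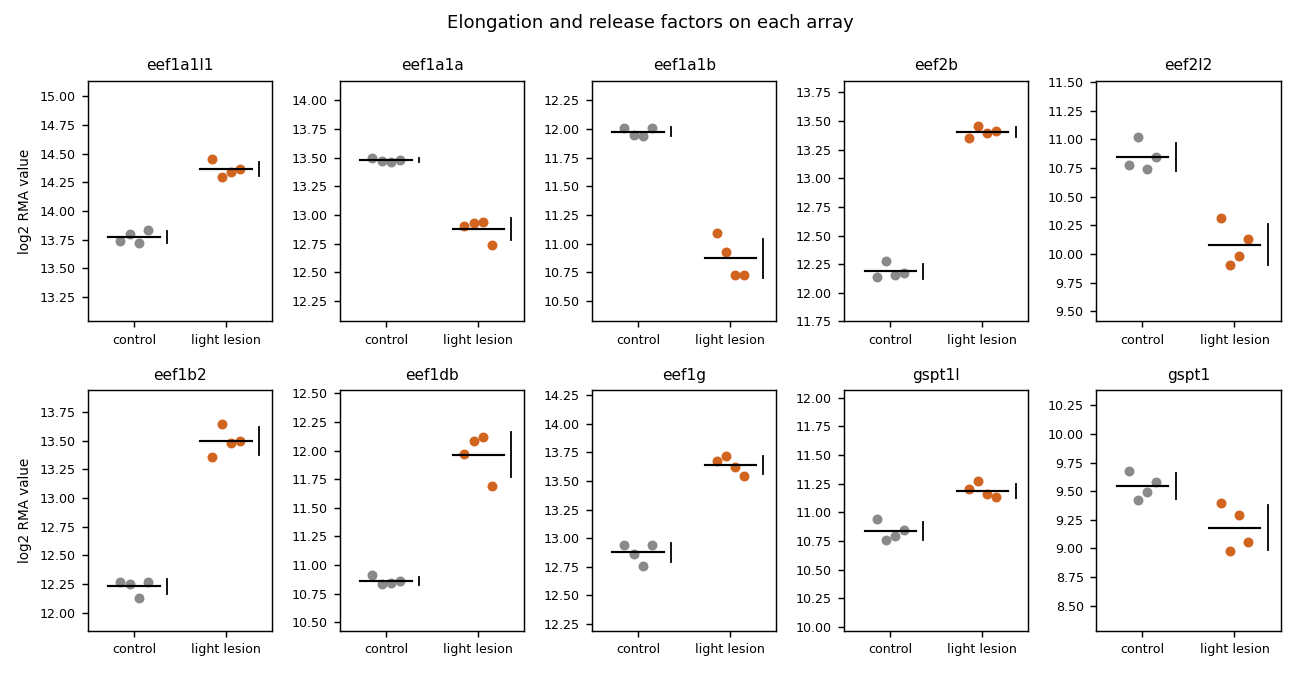
The log2 RMA value of 10 elongation and release factor genes on each control array (grey) and each light lesion array (orange), with the group mean as a horizontal bar and the SD as a vertical line; every panel spans 2.1 log2 units. The light lesion arrays lie above the controls for eef1a1l1, eef2b, eef1b2, eef1db, eef1g and gspt1l, and below them for eef1a1a, eef1a1b, eef2l2 and gspt1.

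Of the 3 release factor genes 2 rose and 1 fell, where 24.4% of all genes were called higher and 20.1% lower. The eRF1 gene etf1b, whose protein recognises the stop codon, read 10.50, 10.51, 10.43 and 10.50 on the control arrays and 10.80, 11.03, 10.94 and 11.24 on the light lesion arrays (1.43-fold, log2 fold change 0.52, SE 0.09, adjusted p = 9.66e-04). The eRF3 gene gspt1l rose from 10.94, 10.76, 10.79 and 10.85 to 11.20, 11.27, 11.16 and 11.13 (log2 fold change 0.36, SE 0.06, adjusted p = 7.04e-04). Its relative gspt1 fell from 9.68, 9.42, 9.49 and 9.58 to 9.40, 8.98, 9.29 and 9.06 (log2 fold change -0.36, SE 0.10, adjusted p = 0.0167). The gspt1 groups were only just apart, at 9.42 for the lowest control and 9.40 for the highest light lesion array. The gap between the eRF3 genes widened by 0.71 in log2 value, for a pair chosen in the same way.

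Neither modifying enzyme passed. The eEF2 kinase eef2k, which phosphorylates eEF2 and thereby slows elongation, read 7.74, 7.63, 7.64 and 7.63 on the control arrays and 8.05, 7.18, 7.42 and 7.32 on the light lesion arrays. Light lesion replicate 1 was the highest of all 8 arrays and the other 3 light lesion arrays the lowest. The difference over all arrays was -0.17 (adjusted p = 0.439), and without light lesion replicate 1 it was -0.35 and passed (adjusted p = 0.00278). The eEF1A methyltransferase gene eef1akmt2 lay at background in both groups (-0.06, adjusted p = 0.562).

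For 9 of the 39 genes several probe sets could be compared. All probe sets of gspt1 (-0.36 and -0.34) and of eef2l2 (-0.77, -0.51 and -0.21) were called lower. The smallest of these, a probe set whose name marks it as open to cross-hybridisation, lost its call in 8 of 14 settings (adjusted p up to 0.107), including the omission of any 1 control array or of light lesion replicate 3 or 4. For qars1 a second probe set read 7.37, 7.31, 6.95 and 7.01 on the control arrays and 8.07, 8.23, 7.83 and 8.05 on the light lesion arrays. It rose by 0.88 (adjusted p = 2.14e-04), while the remaining one differed by 0.15 (adjusted p = 0.139). The control mean of the second qars1 probe set, 7.16, lay near the background of 7.08, with control arrays at 6.95 and 7.01 under it. The second cars1 probe set, at background in both groups, gave -0.23 (adjusted p = 0.0659), with control arrays at 7.19, 6.89, 6.83 and 6.86 and light lesion arrays at 6.66, 6.83, 6.76 and 6.62.

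The probe sets of etf1b disagreed most. The 2 brighter ones rose, the second from 10.11, 10.04, 9.88 and 10.02 to 10.54, 10.90, 10.61 and 10.71 (log2 fold change 0.68, adjusted p = 1.56e-04). The 2 dimmer ones, whose names share a stem of their own, gave -0.15 (adjusted p = 0.446) and -0.08 (adjusted p = 0.695). The name of the dimmest (-0.08) also marks it as open to cross-hybridisation. For vars1 the brighter probe set was called higher on light lesion arrays of 8.90, 9.02, 8.70 and 8.78 against controls of 8.62, 8.73, 8.56 and 8.56. The dimmer one gave -0.15 (adjusted p = 0.203), with controls of 7.53, 7.57, 7.88 and 7.65 and light lesion arrays of 7.67, 7.47, 7.40 and 7.47, and averaging the vars1 probe sets ended the call (0.04, adjusted p = 0.650).

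For yars1, 1 of 3 probe sets was called, from 8.83, 8.75, 8.61 and 8.68 to 9.16, 8.97, 9.02 and 9.05 (0.33, adjusted p = 0.00211). The probe set of highest mean passed without control replicate 1, and the average of the 3 passed too (0.20, adjusted p = 0.0375). The remaining yars1 probe set (0.02, adjusted p = 0.798) did not pass. No probe set of fars2 or mars1 passed. The dimmer mars1 probe set, at background in both groups, is also marked as open to cross-hybridisation.

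**Figure D4:**
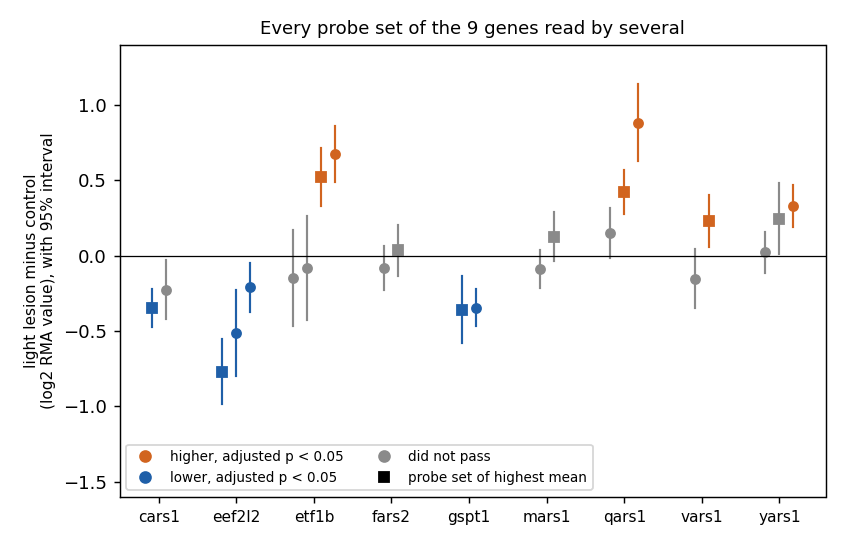
Each mark is the light lesion minus control difference of 1 probe set in log2 RMA value, with its 95% interval, for the 9 genes that several probe sets read; squares are the probe set of highest mean. All eef2l2 and gspt1 marks lie below 0 and are called lower (blue), whereas etf1b, qars1, vars1 and yars1 each hold called (orange) and uncalled (grey) probe sets.

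Other genes of the same steps were read from lists written with earlier results of these data known. Their counts stand beside the 24.4% of all genes called higher and the 20.1% called lower. Of 16 elongation-linked factors measured, 7 rose and 3 fell, with a median of 0.24. Both eIF5A genes rose, eif5a2 by 0.93 (adjusted p = 2.46e-06) and eif5a by 0.39 (adjusted p = 5.84e-04). The ribosomal scaffold rack1 rose by 0.92 (adjusted p = 1.01e-06), and the recycling factor abce1 by 0.77 (adjusted p = 2.24e-05).

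The enzymes that form the hypusine of eIF5A went opposite ways: dohh, which completes it, rose by 0.60 (adjusted p = 5.70e-05), and dhps, which starts it, fell by 0.81 on the log2 scale (adjusted p = 1.45e-04). The diphthamide gene dph7, which takes part in the modification of eEF2, fell by 0.58 (adjusted p = 1.77e-04), and hbs1l, a relative of eRF3, fell by 0.21 (adjusted p = 0.0196). Its partner on stalled ribosomes, pelo, rose by 0.49 (adjusted p = 1.73e-04). From a list on mitochondrial elongation, release and recycling 7 genes were measured. Of these 1 rose, gfm1 (0.19, adjusted p = 0.0394), and none fell. No listed release factor gene was among the 7, while an initiation factor gene was. The mitochondrial eEF1A counterpart tufm differed by -0.07 (adjusted p = 0.316).

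From a list on transfer RNA maturation, repair, export and amino acid editing 28 genes were measured, of which 10 rose and 4 fell, with a median of -0.02. None of the listed export and amino acid editing genes was among the 28, while genes of selenophosphate synthesis were. The La protein gene ssb, whose product binds new transfer RNAs, rose most (0.78, adjusted p = 5.40e-06), followed by the pseudouridine synthase pus7 (0.39, adjusted p = 6.71e-05) and the peptidyl-tRNA hydrolase ptrh2 (0.36, adjusted p = 0.00136). The dihydrouridine synthase dus3l (-0.33, adjusted p = 7.20e-04), the transfer RNA methylation factor wdr4 (-0.29, adjusted p = 0.00620) and the transfer RNA methyltransferase trmt1 (-0.23, adjusted p = 0.0302) fell most. The control mean of ptrh2 (6.97) and the light lesion mean of wdr4 (6.86) lay at background.

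Many cytosolic synthetase genes are known in mammals as targets of ATF4, a transcription factor of the amino acid response. Of 26 measured genes tied to that response, 12 rose and 5 fell, with a median of 0.08. Over the array 24.4% of all genes were called higher and 20.1% lower. The serine synthesis enzyme psat1 rose from 7.82 ± 0.06 to 9.30 ± 0.27 (1.48, adjusted p = 1.02e-05), and the transcription factor genes atf5a (3.31, adjusted p = 7.35e-08) and atf3 (2.92, adjusted p = 2.77e-05) rose further. The atf4a transcript fell from 12.33 ± 0.06 to 11.74 ± 0.15 (-0.60, adjusted p = 1.90e-04), as did chac1 (-0.56, adjusted p = 1.63e-04) and aldh18a1 (-0.45, adjusted p = 0.00613). The other ATF4 gene measured, atf4b, stood at 11.29 ± 0.09 and 11.28 ± 0.06 and did not pass (adjusted p = 0.976). The asparagine synthetase asns, which supplies the amino acid that nars1 uses, did not pass (-0.12, adjusted p = 0.485). Its means were low, 7.32 in controls and 7.21 after the lesion. ATF4 protein was not measured, and its part in the synthetase changes was not tested.

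Several cell type markers moved between the same groups. Of 16 markers of proliferating cells 14 rose, and their mean level went from 7.59 to 7.87 on the control arrays to 8.86 to 9.17 on the light lesion arrays. Of 21 microglia and leukocyte markers 18 rose and 1 fell, from 8.33 to 8.39 up to 9.15 to 9.49. Of 10 photoreceptor markers 8 fell and 2 did not pass, and the mean level of the 10 went to 12.40 to 12.63. Of 9 markers of inner neurons and Müller glia 6 fell, from 11.55 to 11.69 down to 10.93 to 11.32. The called falls in that list ran from -1.10 (pax6b) to -0.21 (glula), and slc1a2b, vsx1 and rlbp1a did not pass. The mean of the list thus fell, but not every marker in it did. Of 8 pigment cell markers 5 rose, from 9.70 to 9.77 up to 10.60 to 10.78. The leukocyte marker ptprc was at background in controls (6.92) and at 7.45 after the lesion.

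Markers of blood and muscle moved less. Of 8 blood markers 3 fell and of 13 muscle markers 4 fell, and none rose in either list. Their mean levels were 7.44 to 7.64 and 7.23 to 7.53 on control arrays and 7.28 to 7.38 and 7.12 to 7.26 on light lesion arrays, and 5 of the blood and 3 of the muscle markers lay at background in both groups. The GAPDH control probes at the 3′ end exceeded those at the 5′ end, a measure that RNA breakdown and labelling can move, by 0.0297 to 0.0774 on control arrays and 0.158 to 0.285 on light lesion arrays. For the acta1 (muscle actin) control probes the same difference overlapped between the groups, at -1.52 to -1.27 on control arrays and -1.67 to -1.39 on light lesion arrays. The part of these cell types and of RNA quality in the changes of the translation genes was not tested.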

How the data were processed

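For each array the authors deposited log2 values by probe set. RMA is the method that the submitters' processing notes name, with no version. The log base was read from the values, which ran from 5.47 to 14.89. Of 15617 probe sets, 115 control probe sets were left out. The array annotation gave 1 symbol to 10795 of the other 15502, several to 135 and none to 4572. All 39 member genes were found in the RefSeq gene table by gene identifier, and no symbol changed.

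The groups were tested in R 4.3.3 by limma 3.58.1, fitting lmFit then eBayes on every probe set without covariates, with Benjamini-Hochberg adjustment over 15502 probe sets and a threshold of 0.05. The 95% intervals come from the same fit. The fit was also run on simulated data with equal spread in both groups and far fewer changed probe sets than were called here. That run is not used as support.

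Every member gene is named. Array values were given for the 4 largest called changes of each role, for genes whose probe sets differ in their call, and, chosen after their values were seen, for eef1a1l1, eef1a1a, eef2l2 and eef2k. From each pathway list up to 3 called genes in each direction are named. Also named are eprs1, tufm, asns, atf4b, eif5a, dohh and pelo, and the markers ptprc, pax6b, glula, slc1a2b, vsx1 and rlbp1a. These were chosen after their values were seen. Alternatives were other normalizations, a filter on dim probe sets, another variance prior, array weights, a replicate block, a stricter threshold, averaged probe sets and the omission of each array. Members, lists and pairs were chosen with earlier results of these data known. The background level is the highest group mean of 27 bacterial probe sets. The array's 17 synthetic tag probe sets reached 7.96. At or under that level in both groups lay 13 member probe sets, 2 of them called.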

Additional observations from a re-analysis of the deposited data

Results flagged for a closer look

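In 6 of 106 sets of 4 arrays (53 probe sets in 2 groups) 1 array stood apart from the other 3 by Dixon's test, and chance alone gives about 1 in 20. Control replicate 1 was high for eef2k (7.74, others 7.63 to 7.64) and for the dim cars1 probe set (7.19, others 6.83 to 6.89). Control replicate 3 was low for eef1b2 (12.13, others 12.25 to 12.27) and for etf1b (10.43, others 10.50 to 10.51). Light lesion replicate 3 was low for kars1 (11.38, others 11.59 to 11.63), and light lesion replicate 4 was high for eef1a1l3 (7.84, others 7.74 to 7.75).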

How the results depend on the processing

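Of 35 called member probe sets, 28 kept direction and call in every one of the 14 alternative settings that gave a value (a filter on dim probe sets removed eef2a.1). The other 7 (eef1e1, kars1, farsb, tars1, vars1, pars2 and the dimmest eef2l2 probe set) kept their direction and lost the call in some. The stricter threshold and the averaged probe sets are not among the 14. The size of a change was less stable for some. After a second quantile normalization eef1a1a gave -0.76 (main fit -0.60) and eef1g gave 0.60 (main fit 0.76). Both lay outside the 95% intervals of the main fit, -0.72 to -0.48 and 0.63 to 0.90. Leaving out 1 array each gave 22 to 25 members called higher, 7 to 11 called lower and 5256 to 6239 probe sets over the array. The deviations of same-numbered arrays correlated at -0.21, 0.28, -0.24 and 0.17 for replicates 1 to 4. Control replicates 2 and 4 matched the light lesion array of their own number best and the other 2 did not, so the numbers were not taken as pairs. With the replicate block these counts were 25, 7 and 5638, and at a threshold of 0.01 they were 21, 6 and 4395. The block ended the calls of farsb, tars1, pars2 and the dimmest eef2l2 probe set and added that of the yars1 probe set of highest mean (adjusted p = 0.0162). A trended prior added the dim cars1 probe set (adjusted p = 0.0480).

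Changes of sign were seen in 4 probe sets that were not called. They were aars1 (-0.0025 with array weights, -0.0336 without light lesion replicate 1), fars2 (-0.0059 without control replicate 1, -0.0098 without light lesion replicate 1, -0.0231 averaged) and the dimmest etf1b probe set (0.0368 without control replicate 3, 0.0266 without light lesion replicate 2). The lowest yars1 probe set gave -0.0172 after a second quantile normalization, -0.0403 with array weights, and -0.0047, -0.0043 and -0.0069 without control replicate 1, control replicate 3 and light lesion replicate 1. Over the omissions of 1 array the differences ran from -0.0336 to 0.0668 for aars1, from -0.0098 to 0.0839 for fars2, from -0.1755 to 0.0368 for this etf1b probe set and from -0.0069 to 0.0635 for this yars1 probe set. The cause was not tested. The planned search of promoters for motifs was not run. With 4 arrays per group, small changes may have been missed.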

Other observations

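A probe set annotated to both cirbpb and eef1da, a second eEF1B delta gene, was not counted above because its signal cannot be assigned to 1 gene. It stood at 11.79 ± 0.05 in controls and 12.58 ± 0.08 after the light lesion (n = 4 each, log2 fold change 0.79, SE 0.06, adjusted p = 4.73e-06). A probe set annotated to both the mitochondrial tyrosyl-tRNA synthetase yars2 and cdkn1bb stood at 7.21 ± 0.09 and 7.23 ± 0.06 (adjusted p = 0.763).

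The light lesion arrays spread more than the controls for 27 of the 39 genes, with a median SD of 0.117 against 0.0716. Over all 8793 genes the light lesion arrays spread more for 4826, and the median SDs were 0.0966 and 0.0885.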
